A study of Mus musculus with 3 samples.

Results

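The sites described here are strong binding sites of phosphorylated STAT3 that had no other strong site nearby and lay inside a stretch of chromatin marked by H3K4me3. They numbered 1012 of the 26908 phospho-STAT3 sites found in the series. They were chosen by measured values: the phospho-STAT3 reads of the site and of its neighbours, and the H3K4me3 reads of both genotypes added together. A site joined overlapping windows of 200 bp that held 10 or more reads, had reads of either strand, and passed a Poisson limit of 1e-08 when set against the density of the genome or of the surrounding 10 kb, whichever was higher. Its excess is the count of its highest window minus the count expected from that density, and a site with an excess of at least 26 reads is called strong. A strong site is called isolated when no other strong summit lay within 12.5 kb. H3K4me3 regions were runs of 200 bp windows with at least 12 reads in both H3K4me3 libraries together. On chromosomes 1 to 19 there were 6771 strong sites, of which 4410 were isolated and 1012 were isolated and inside a region, at a position above 3100000. The members thus made up 14.95% of strong sites and 22.95% of isolated ones, and each lay in a region of its own.

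The data are from mouse CD4 T cells that were sorted as naive cells and stimulated through CD3 and CD28 for 72 h, with TGF-b at 2.5 ng/ml, IL-6 at 10 ng/ml and antibodies blocking IL-2, IL-4 and IFN-g. This mixture drives them towards the IL-17-producing Th17 state, and the cells then received IL-6 once more for 1 h. Wild-type cells were Stat3fl/fl FoxP3-GFP without Cre, and STAT3-deficient cells were Stat3fl/fl FoxP3-GFP with CD4-Cre, which deletes the floxed allele in T cells, so both genotypes carried the floxed allele and the reporter. Chromatin immunoprecipitation with sequencing (ChIP-seq) gave 3 libraries: H3K4me3 of either genotype, and phospho-STAT3 of wild-type cells only, with an antibody against STAT3 phosphorylated at Ser727. Each group is a single library, so differences between genotypes could not be tested. Intervals of read ratios are for counting error only. Intervals of shares and of medians are taken over sites or regions of the same libraries, which are not replicates of a genotype. The loss of STAT3 itself was not checked here.

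STAT3 is held in the cytoplasm until cytokine receptors such as that of IL-6 activate it, after which it enters the nucleus as a dimer and binds short palindromic DNA elements at promoters and enhancers. In T cells it is required for the Th17 state. H3K4me3 is a mark of nucleosomes at active promoters, where the bound transcription factors themselves usually sit in a gap between marked nucleosomes.

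The libraries held 12281399 wild-type H3K4me3, 12075963 STAT3-deficient H3K4me3 and 10127075 phospho-STAT3 reads, of which H3K4me3 regions held 7.14%, 8.84% and 6.44%. The members held 0.604% of the phospho-STAT3 reads. The reads are placed on mm9, and no gene and no sequence of that build was used here, so members are named by position and the Th17 label was not checked against marker genes. Ratios between genotypes are log2 of STAT3-deficient over wild-type reads, scaled so that the median of the 10971 regions whose H3K4me3 reads summed to 50 or more over the genotypes (called marked) is 0. By library totals this median is 0.32, and a change common to all marked regions would be hidden by the scaling.

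The phospho-STAT3 counts chose the members, so their levels are a description. The highest window of a member held a median of 36 reads (range 28 to 198), a median of 12.3-fold over expectation (4.20 to 36.1), and the excess had a median of 32.3. One in 10 members or fewer exceeded an excess of 52.0, so most lay close to the limit. The 3 members just inside the limit had excesses of 26, 26.02 and 26.02, and the 3 sites just outside it 25.98, 25.96 and 25.94. The nearest other strong summit was 12550 bp away for the least isolated member and 68350 bp away for the median one. Isolated strong sites over 2 kb from any H3K4me3 region (2948 sites) had a median excess of 34.2 and a median of 14.8-fold. Strong sites inside regions that had another strong summit within 12.5 kb (396 clustered sites) had a median excess of 33.9 and a median of 7.83-fold. The expectation was taken over 10 kb or the genome, and every region with a member was narrower than 10 kb. H3K4me3 regions without a site also had raised phospho-STAT3 reads (5.85-fold, given below). Fold and excess inside regions are thus not set against the density of the region itself, and are not like measures to those away from regions.

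The largest member was at chr4:151699600-151700149, with 198 phospho-STAT3 reads against 7.0 expected, an excess of 191. Its summit was 250 bp from one end of a region of 1800 bp with 64 H3K4me3 reads in wild-type and 107 in STAT3-deficient cells. Within 100 bp of the summit there were 2 and 4 of them. A member at chr6:51962400-51962949 showed the same separation more sharply, with 185 phospho-STAT3 reads at 35.7-fold, 73 and 74 H3K4me3 reads in its region and 0 and 1 within 100 bp of the summit. Members at chr19:9028000-9028499 and chr18:46757100-46757599 held 145 and 124 phospho-STAT3 reads, and 3 and 3 or 1 and 2 H3K4me3 reads at the summit in regions of 105 and 135 or 121 and 173 reads. In these 4 the summit fell in a stretch with few H3K4me3 reads in both genotypes.

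Members at chr2:163029000-163029599 (131 reads), chr2:103522500-103523049 (130 reads), chr6:28371500-28372099 (128 reads), chr2:37278500-37278949 (120 reads) and chr10:114688350-114688799 (116 reads) held between 2 and 10 wild-type H3K4me3 reads within 100 bp of the summit. In this order the counts there were 8, 2, 10, 6 and 5, and their regions held 32, 14, 64, 56 and 80. In STAT3-deficient cells they were 7, 6, 6, 14 and 1, with 19, 11, 70, 91 and 78 in the regions. The regions of the 131-read and 130-read members were only 600 and 400 bp wide, so few reads at the summit do not show a low there. The remaining 3 of the 12 members with the largest excess looked different. They were at chr11:108872850-108873499, chr9:35112700-35113299 and chr4:70038950-70039499, with 190, 170 and 117 phospho-STAT3 reads. On chromosomes 9 and 4 the H3K4me3 reads were piled on the summit itself. In the chromosome 9 region 118 of 197 reads in wild-type and 121 of 199 in STAT3-deficient cells lay within 100 bp of it. In the chromosome 4 region 84 of 103 and 89 of 111 did. In the chromosome 11 region, only 400 bp wide, 26 of 45 and 15 of 25 did, so a pile-up within the region is less clear there. At these 3 members 36.3% to 49.7% of phospho-STAT3 reads carried a mismatch to the reference, against 4.58% in the whole library, and 30.8% to 49.5% of the H3K4me3 reads there did too.

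The same check was made for all members, after the data were seen. The site rule applied to the H3K4me3 libraries called a site with its summit within 100 bp of the member's summit, in both genotypes, at 112 members (11.1%, 95% Wilson interval 9.28 to 13.2). At these, a narrow peak was thus shared by all 3 libraries, STAT3-deficient cells included, so the phospho-STAT3 reads there were high where the other libraries were high too. What part this has in the site calls was not tested. Among sites inside regions with an excess under 26 and no strong summit within 12.5 kb (4017 weaker sites) the share was 18.2% (17.01 to 19.4). It was 0.136% (0.0528 to 0.348) among isolated strong sites away from regions. At least 20% of phospho-STAT3 reads were mismatched at 27 members, of which 16 were among the 112 with a shared narrow peak (14.3% of them) and 11 among the other 900 (1.22%). The overlap of the calls themselves was wider. A member overlapped a site call of at least 1 H3K4me3 library in 70.95% of cases (68.1 to 73.7), against 71.02% of weaker sites, 49.2% of clustered strong sites and 1.12% of isolated strong sites away from regions.

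The rule counted reads after moving each 75 bp along its strand, so an offset between the strands is partly set by the rule in every class of sites, and the strand distances are a description only. Around a point-like binding site, plus-strand reads start to the left and minus-strand reads to the right. Between the maxima of the smoothed starts the distance was 55 bp at members, 102 bp at isolated strong sites away from regions, 100 bp at clustered strong sites inside regions and 30 bp at the weaker sites inside regions. The median starts within 200 bp of the summit were added as a second measure after the data were seen. For members these lay at -42 bp for 27165 plus-strand and at 43 bp for 27327 minus-strand reads, 85 bp apart. The distance of medians was 98 bp away from regions, 83 bp at clustered and 77 bp at weaker sites, so members and clustered sites changed places between the measures. At the 112 members with a shared narrow peak the distance of medians was 63 bp, and 87 bp at the others. By medians, the H3K4me3 reads around the same summits had the opposite order. Their plus-strand medians lay 36 bp (wild-type) and 30 bp (STAT3-deficient) to the right of the minus-strand ones. By maxima they had the same order as the phospho-STAT3 reads, with the plus strand 147 bp (wild-type) and 157 bp (STAT3-deficient) to the left. The order of the H3K4me3 strands thus depends on the measure.

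**Figure D1:**
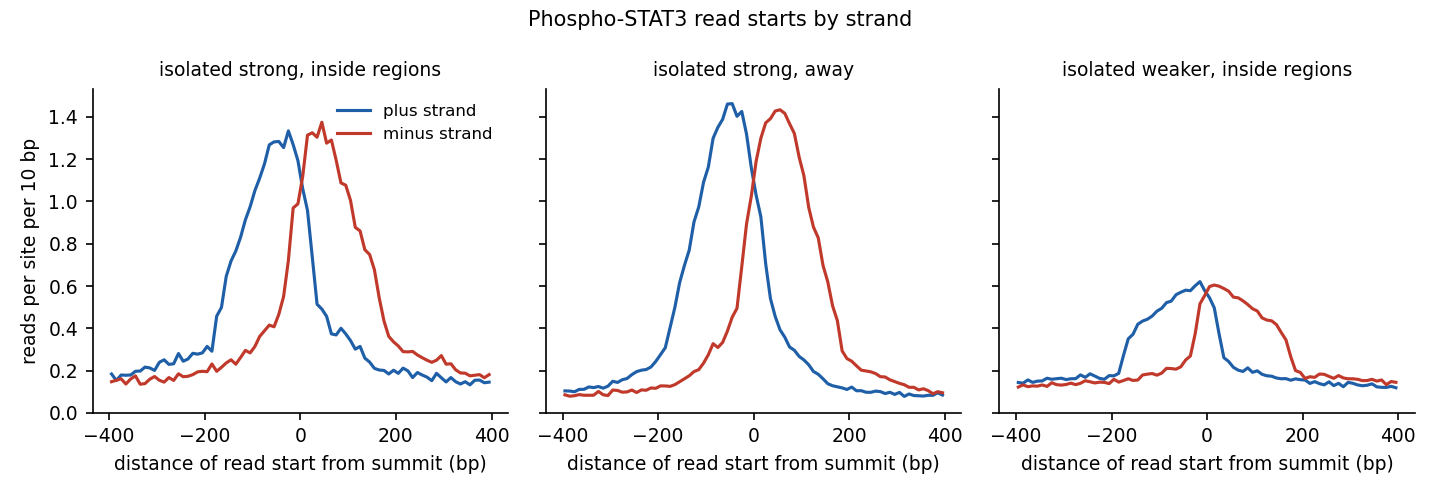
Phospho-STAT3 read starts per site in 10 bp bins against the distance from the summit in bp, for plus-strand (blue) and minus-strand (red) reads, at the 1012 isolated strong sites inside H3K4me3 regions, the 2948 away from them and the 4017 weaker sites inside regions. The median starts of the strands lie 85, 98 and 77 bp apart in this order, which the moving of reads by strand in the site rule partly sets.

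Phospho-STAT3 reads were also more frequent in H3K4me3 regions that held no site. The 5598 marked regions of chromosomes 1 to 19 without a site had 28.01 phospho-STAT3 reads per kb, 5.85-fold over the genome-wide density. The 946 marked regions with a member had 57.0 per kb, 11.9-fold, the reads of the members included. Both sets were chosen by phospho-STAT3 site calls, so the difference between them is set by the rule and is a description only. No input library was analysed here, so how much of either value would be seen without the antibody was not tested.

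The 1012 regions that held members had a median width of 1400 bp (400 to 8800), 66 of them with under 50 H3K4me3 reads, and all marked regions had a median of 1200 bp. Among marked regions alone, those with a member had a median of 179 H3K4me3 reads over both genotypes, and all of them 134. A member was found in 946 marked regions, 8.62% of all, with shares from 5.72% on chromosome 19 to 11.6% on chromosome 6. The summit lay a median of 350 bp from the nearer edge of the region. It fell in the outer 20% of the region's width at either end in 324 members (32.0%, 29.2 to 35.0) and in the middle 20% in 237 (23.4%, 20.9 to 26.1). The outer parts together cover 40% of the width, so summits were fewer there, and more in the middle, than an even spread would give. The lower share in the outer parts was not seen in the 294 members that overlap no H3K4me3 site call (43.9%, 38.3 to 49.6). At an excess of 40 or more it was 36.4%, with an interval (30.4 to 42.7) that includes 40%. The weaker sites had 30.4% (29.02 to 31.9) in the outer parts, within the interval of the members, and clustered strong sites had 41.7% (36.9 to 46.6). The summit was within 200 bp of the centre of the highest H3K4me3 window of its region in 382 members (37.75%) and over 500 bp from it in 305 (30.1%). A weaker site shared the region in 120 members (11.9%), and 443 (43.8%) had another site of any strength within 12.5 kb.

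The comparison of H3K4me3 between genotypes asks whether the mark around these sites depends on STAT3. Most member regions differed little. Of the 946 marked member regions, 857 (90.6%) had a log2 ratio of less than 0.5 in either direction, against 85.9% of all marked regions. Marked member regions held more H3K4me3 reads (median 179) than all marked regions (median 134), so these shares are not at like depth. The median log2 ratio of member regions was 0.03 (95% interval of the median 0.01 to 0.05), which was 0.35 by library totals, close to the 0.32 of all marked regions. Within 1 kb of the 1012 summits the reads summed to 76064 in wild-type and 94210 in STAT3-deficient cells, which is a scaled log2 ratio of 0.01 (-0.0013 to 0.03). Without the members that share a narrow peak it was 0.02 (0.0015 to 0.03), without the 27 with many mismatched reads 0.02 (0.004 to 0.03), and for the 294 that overlap no H3K4me3 site call -0.06 (-0.09 to -0.03). By the size rule given next, 5 member regions were lower and 4 higher without either of the first 2 sets. A size rule asked for a difference of 2-fold or more and a 95% counting interval (exact, Clopper-Pearson) that leaves out no change. By this rule, 6 member regions were lower in STAT3-deficient cells (0.634%, against 1.16% of all marked regions) and 4 were higher (0.423%, against 1.01%), and 2.17% of all marked regions passed in either direction. By library totals the counts were 3 lower and 15 higher, against 0.492% and 2.91% of all marked regions, or 3.4% in either direction. Neither share of members was above that of all marked regions under either scaling. These shares too are not at like depth, and what part depth has in them was not tested.

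**Figure D2:**
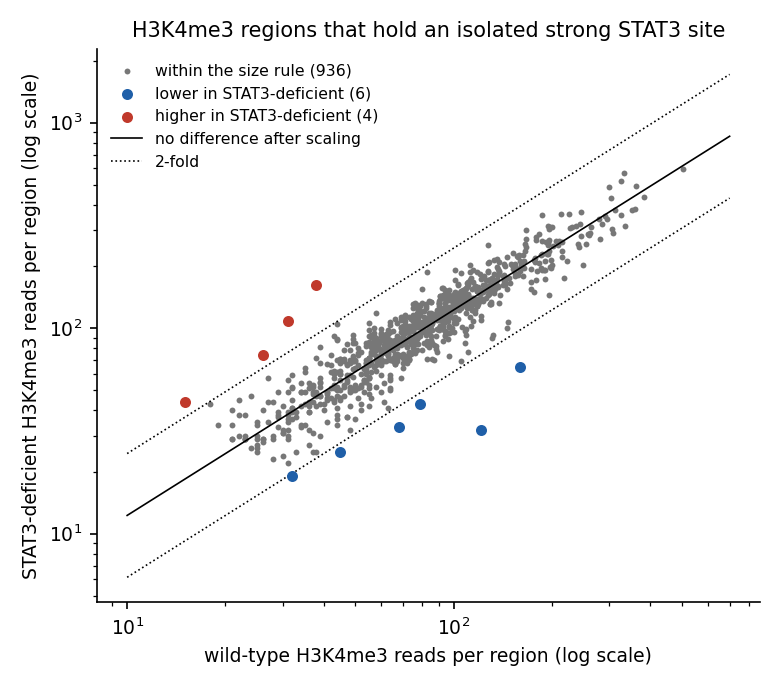
Wild-type against STAT3-deficient H3K4me3 reads of the 946 marked regions with an isolated strong STAT3 site, 1 point per region on log axes; the solid line is no difference after scaling and the dotted lines are 2-fold. The cloud follows the solid line, with 6 regions past the size rule below it and 4 above it.

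The lower region with the interval farthest from no change was at chr6:48790000-48791799. With 121 reads in wild-type and 32 in STAT3-deficient cells it was 4.64-fold lower after scaling (log2 ratio -2.21, -2.83 to -1.64). Its member, at chr6:48791200-48791649, had 68 phospho-STAT3 reads, 11.6-fold over expectation, and lay 349 bp from the edge. The region at chr3:107560400-107563399 held 160 and 65 reads, 3.02-fold lower, with a member of 64 reads 149 bp from its edge. Regions at chr8:14960400-14961999 (68 and 33 reads) and chr17:51965600-51967599 (79 and 43 reads) had log2 ratios of -1.34 (-1.99 to -0.72) and -1.17 (-1.75 to -0.62), with members of 34 and 54 phospho-STAT3 reads. The other 2 lower regions were small and belonged to members already described, at chr11:108873000-108873399 with 45 and 25 reads and at chr2:163029000-163029599 with 32 and 19 reads. The chromosome 11 region is one of those with many mismatched reads. The chromosome 2 region had a log2 ratio of -1.05 with an interval from -1.95 to -0.19, the nearest to no change of the 6.

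Among the higher regions, the one at chr1:40522400-40524799 held 38 wild-type and 162 STAT3-deficient reads, 3.47-fold higher (log2 ratio 1.80, 1.28 to 2.35). Its member, at chr1:40522250-40522699, had 77 phospho-STAT3 reads, 21.04-fold over expectation, and lay 100 bp from the edge. A region at chr12:114663400-114665199 held 31 and 108 reads, 2.84-fold higher, with a member of 36 reads. Regions at chr17:36156800-36157999 (26 and 74 reads) and chr4:15195000-15196199 (15 and 44 reads) were 2.32-fold and 2.39-fold higher, with members of 40 and 32 reads. The 4 higher regions each held fewer than 40 wild-type reads, and the 6 lower ones between 32 and 160.

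By the amount of phospho-STAT3, in groups chosen with these values known, the lower regions lay mostly among members with a large excess, on small counts. Of the 734 marked members with an excess under 40, 1 region was lower and 3 were higher. Of the 161 with an excess from 40 to 60, 2 were lower and 0 higher, and of the 51 above 60, 3 were lower (5.88%, 2.02 to 15.9) and 1 higher. Of all marked regions 1.16% were lower and 1.01% higher. That lower share is inside the interval of the group from 40 to 60 (0.341% to 4.42%), above that of the group under 40 (0.0241% to 0.768%) and below that of the last. In 4 groups of nearly equal size by excess, 0 of 241, 1 of 234, 0 of 238 and 5 of 233 were lower, and the intervals of the first (0 to 1.57%) and the last (0.92% to 4.92%) overlapped. Both of these intervals include the 1.16% of all marked regions. The median log2 ratio was 0.03 for an excess under 40, 0.06 from 40 to 60 and -0.13 above 60. The last, with an interval from -0.19 to 0.01, includes 0, and by library totals it was 0.19. Of the 59 members above 60, whether marked or not, 8 had many mismatched reads, against 27 of all 1012, and the chromosome 11 region among the 3 lower ones is one of them. Without it 2 lower regions remain in that group.

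Regions lower in STAT3-deficient cells were then sorted by where the strong STAT3 site lay, a comparison chosen after the data were seen. On chromosomes 1 to 19 there were 123 lower regions. Of these, 6 held a member (4.88%), 8 held a clustered strong site (6.50%), 52 had a strong summit within 10 kb but none inside (42.3%) and 57 had none within 10 kb (46.3%). Seen from the regions, 3.62% (2.77 to 4.72) of the 1436 marked regions with a strong site only outside were lower, against 0.634% (0.291 to 1.38) of those with a member. With just 1 strong summit outside within 10 kb the share was 3.21% (2.35 to 4.37) of 1184. It was 2.65% (1.35 to 5.14) for the 302 regions with a clustered strong site inside. Regions with no strong site within 10 kb were lower in 0.349% of cases when a weaker site lay inside and in 0.986% when no site did. The intervals for members and for sites only outside did not overlap, though regions are not replicates of a genotype.

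Read depth and scaling differ between these classes and were varied. The median of H3K4me3 reads was 179 for marked regions with a member and 125 for those with a strong site only outside. Among regions with at least 100 reads the lower shares were 0.501% (0.195 to 1.28) and 2.53% (1.69 to 3.77), and by library totals 0.317% (0.108 to 0.928) and 2.09% (1.47 to 2.97). With at least 200 reads they were 0.254% (0.0448 to 1.42) and 2.0% (0.972 to 4.07), and the intervals overlapped. The library used for calling regions also changed the values. On wild-type reads alone the shares were 0.641% and 3.72% (2.79 to 4.94), whereas regions called on STAT3-deficient reads alone gave 0 of 613 (up to 0.623%) and 0.228% (0.0776 to 0.668), with overlapping intervals. Calling on 1 genotype alone favours regions that are high in it, so these calls depend on the outcome compared.

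**Figure D3:**
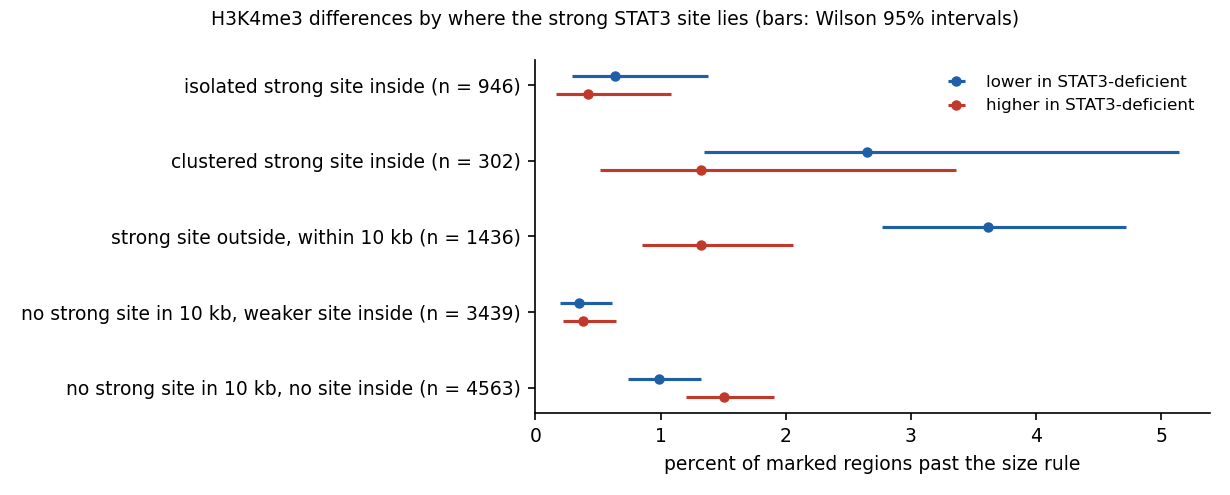
Percent of marked H3K4me3 regions lower (blue) or higher (red) in STAT3-deficient cells at the size rule, with Wilson 95% intervals, by where the nearest strong STAT3 site lies; n is the number of regions. Regions with an isolated strong site inside sit at 0.634% lower, and those with a strong site only outside at 3.62%.

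H3K4me3 around the summits had a local low at the phospho-STAT3 summit, in both genotypes. Within 50 bp of member summits the lowest 50 bp bin held 1923 wild-type reads, against 2941 and 3290 in the highest bins 100 to 250 bp to either side, which is 61.7% of their mean (41.5% without the members that share a narrow peak). In STAT3-deficient cells it held 2443 against 3523 and 3999, 65.0% of their mean (44.4% without them). Those members were picked by an H3K4me3 peak at the summit, so leaving them out deepens the low by construction. A low was also seen at the weaker sites inside regions and at isolated strong sites away from regions. In wild-type cells the 25 bp bin at the summit held 1.203 reads per weaker site, against 1.403 and 1.507 in the highest bins to either side. Away from regions it held 0.217, against 0.322 and 0.303. In STAT3-deficient cells these values were 1.476 against 1.727 and 1.874, and 0.266 against 0.302 and 0.291. Comparing a lowest with highest bins favours a low by construction, so a ratio of fixed windows was also taken. Per bp, reads within 100 bp of the summit were 0.975 times those at 200 to 500 bp in wild-type cells (0.952 to 0.999) and 1.01 times in STAT3-deficient cells (0.985 to 1.03). At the weaker sites inside regions these values were 1.27 (1.25 to 1.28) and 1.26 (1.25 to 1.27). The intervals of all members and of weaker sites did not overlap in either genotype, but the 59 members with an excess above 60 had 1.34 (1.22 to 1.47) and 1.37 (1.26 to 1.49), not below the weaker sites. Of these 59, 6 share a narrow peak and 8 have many mismatched reads. The wild-type ratio of members turned above 1 with unmoved reads (1.05), with 50 bp against 200 to 1000 bp (1.14), at an excess of 40 or more (1.14) and with no other site of any strength nearby (1.02), so its position below 1 depends on these settings. Clustered strong sites inside regions had 0.918 (0.882 to 0.954) and 0.969 (0.935 to 1.00).

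**Figure D4:**
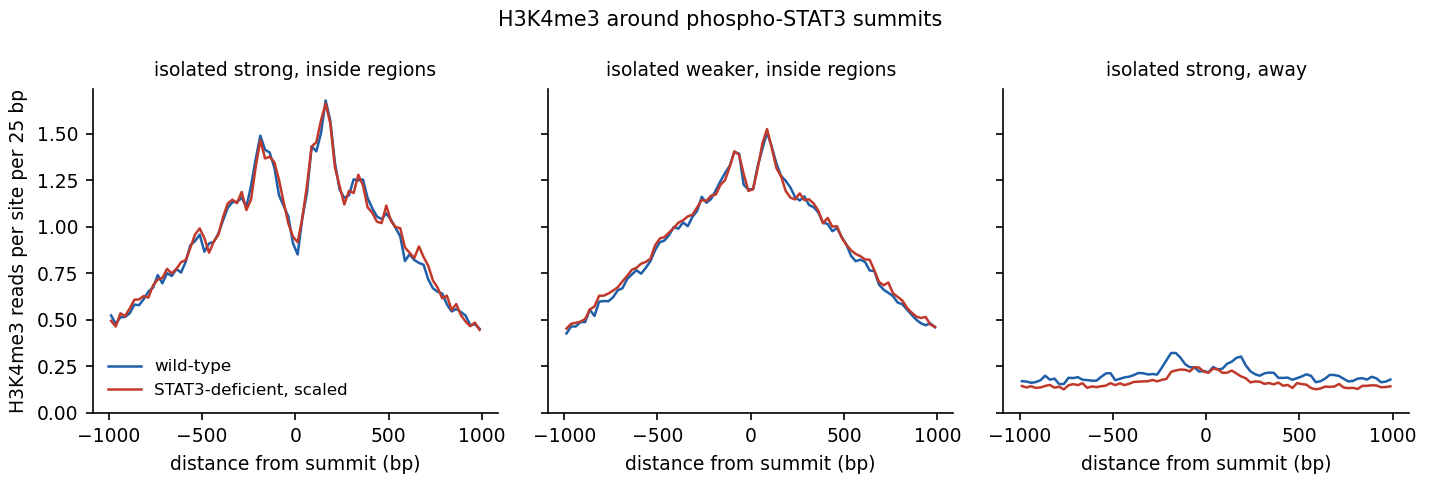
H3K4me3 reads per site in 25 bp bins against the distance from the phospho-STAT3 summit in bp, wild-type in blue and STAT3-deficient in red after scaling by the median of marked regions, for the 1012 isolated strong sites inside regions, the 4017 weaker sites inside regions and the 2948 isolated strong sites away from regions. Inside regions both genotypes trace nearly the same curve with a low at the summit, and away from regions the curves differ in shape.

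This ratio can be compared between genotypes without any scaling. For members the summit-to-flank ratio was higher in STAT3-deficient cells by 0.05 log2 units, with an interval from -0.0012 to 0.09 that includes 0. It was higher on 14 of 19 chromosomes, but these share the same libraries and are not replicates of a genotype. Without the 27 mismatch-rich members the difference was 0.07 (0.02 to 0.12), and the ratios were 0.898 and 0.943. Without the 112 members with a shared narrow peak it was 0.08 (0.03 to 0.14), and 0.72 and 0.763. The last step removes members by their H3K4me3 reads at the summit and so lowers both ratios by construction. Under the same step the weaker sites inside regions had 0.923 and 0.925, a difference of 0.0024 (-0.02 to 0.03), and -0.0037 (-0.03 to 0.02) before it. The interval for all members thus included 0, and it excluded 0 when either set was left out. The difference did not grow steadily with phospho-STAT3: over 4 groups of equal size from the lowest to the highest excess it was -0.05, 0.14, 0.04 and 0.06, and of these intervals the one of the second group (0.04 to 0.23) excluded 0.

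At isolated strong sites away from H3K4me3 regions the same difference was 0.32 (0.26 to 0.38), with ratios of 1.13 (1.10 to 1.17) in wild-type and 1.41 (1.37 to 1.45) in STAT3-deficient cells. That interval did not overlap the one for all members, nor those without members with a narrow peak or with many mismatched reads. For the 294 members not overlapping an H3K4me3 site call the difference was 0.15 (0.04 to 0.27), which excludes 0 and overlaps the interval of the sites away from regions. The summit counts were 8925 and 11215 reads for all 1012 members and 5561 and 6676 for the sites away from regions. The latter were chosen to lie away from H3K4me3 regions, so they hold few such reads. In wild-type cells they had 0.217 reads per site in the 25 bp bin at the summit and 0.17 in the bin at -1000 bp, against 0.852 and 0.524 at members. Their ratios thus hold more background than those inside regions and are not a like measure.

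**Figure D5:**
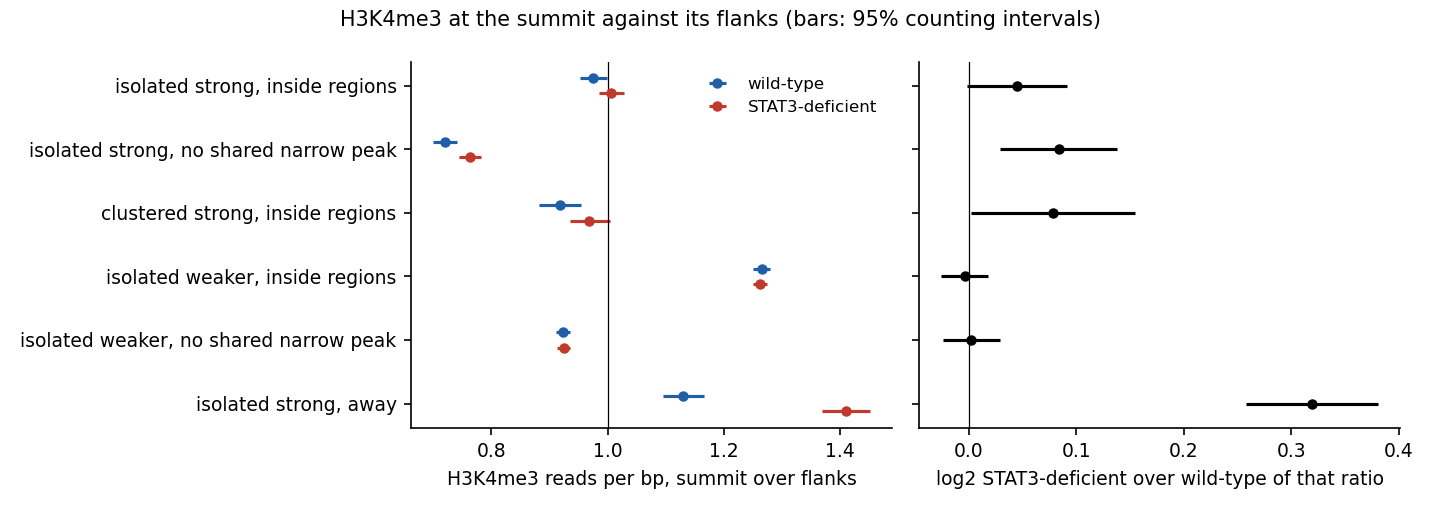
Left, H3K4me3 reads per bp within 100 bp of the summit over those at 200 to 500 bp in wild-type (blue) and STAT3-deficient (red) cells; right, the log2 ratio of these values between genotypes, for each class of sites, with 95% counting intervals. The difference is 0.05 at isolated strong sites inside regions, near 0 at weaker ones and 0.32 away from regions.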

How the data were processed

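The deposited files hold aligned reads of 25 bp, 1 line each, with position, strand and a match code, and no value per region. SICER and mm9 are named in the submitters' processing notes, without a version, and the aligner is not given in the sources used here. A code other than the plain read length was read as a mismatch. Per the values, the authors' deposited files hold at most 1 read per position and strand, so a 200 bp window can hold at most 400 reads and the highest member window filled 49.5% of these places. Read counts were made here from those positions, moved 75 bp towards the fragment centre. H3K4me3 regions joined windows across gaps of up to 600 bp and needed 2 windows, and the mappable share was taken as 0.8. The interval of the summit-to-flank difference is a normal approximation from 4 counts. Reads carry no molecular identifiers. Intervals of read ratios cover counting error only. Those of shares (Wilson) and of medians (from ranks) cover the number of sites or regions, and none covers differences between libraries of a genotype. The members and all lists and classes were chosen with earlier results of these data known. Library totals and the median of marked regions were the scalings tried. Named members are the 12 with the largest excess, the regions past the size rule (up to 6 in each direction) and the 3 members nearest the excess limit. The gene lists and the STAT motif search were not run, because they needed genes or sequence on mm9. The shared narrow peaks, the mismatched reads, the medians of the strands and the classes of regions by where the strong site lies were added after the data were seen. The site caller, the size rule and the interval of the summit-to-flank difference were tested on simulated data. The simulated sites lay on an even background, unlike the raised phospho-STAT3 reads of H3K4me3 regions. Site calling inside such regions was thus not covered. Computations used Python 3.11.15, numpy 2.4.6, scipy 1.17.1, pandas 2.3.3 and matplotlib 3.10.9.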

Additional observations from a re-analysis of the deposited data

Results flagged for a closer look

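The match codes of the reads, which do not enter the read counts, stood out at 27 members, where at least 20% of the phospho-STAT3 reads differed from the reference. Over these members 40.8% of phospho-STAT3, 39.6% of wild-type H3K4me3 and 39.0% of STAT3-deficient H3K4me3 reads were mismatched, against 4.58%, 3.90% and 3.97% of the libraries. Besides the 3 members named for their excess, they include those at chr5:147072450-147073099 (111 phospho-STAT3 reads, 41.8% mismatched), chr15:74916600-74917599 (87 reads, 31.1%), chr1:197067600-197068299 (82 reads, 29.9%) and chr3:56379250-56379749 (67 reads, 53.8%). Of the 25 in marked regions 1 was lower and 0 were higher between genotypes. Their median log2 ratio was -0.09 (-0.28 to -0.02) after scaling and 0.23 by library totals. What these reads come from was not tested.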

How the results depend on the processing

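Of 92 alternative values, 49 stayed within the limits set (counts within 1.5-fold, other values within the interval of the first value). Scaled by library totals, 3 member regions were lower and 15 higher, the median log2 ratio was 0.35 and the summed one 0.33. Regions called on wild-type reads alone left 471 members, 3 lower and 1 higher, with a summed ratio of 0.091; on STAT3-deficient reads alone 618 members, 0 lower and 2 higher, with a median of -0.014, the opposite sign, and a summed ratio of -0.033. With at least 30 reads per region 10 were lower and the median was 0.064. Within 2 kb the summed ratio was -0.0039. With an excess of 40 or more there were 300 members isolated from one another; the 231 of the original ones had 1 higher region, a summed ratio of -0.012, summit-to-flank ratios of 1.14 (wild-type, turned above 1) and 1.18, and 36.4% in the outer 20% at either end. With no other site of any strength nearby there were 569 members, 1 higher, ratios of 1.02 (wild-type, turned above 1) and 1.03, and 28.1% in the outer 20% at either end. The 294 members not also called in an H3K4me3 library had a median of -0.00078 (opposite sign), a summed ratio of -0.061, summit-to-flank ratios of 0.763 and 0.848 with a difference of 0.15, and 43.9% in the outer 20% at either end. Without the read move the summit-to-flank ratios were 1.05 (turned above 1) and 1.06, and with 50 bp against 200 to 1000 bp they were 1.14 (turned above 1) and 1.14. Without members that share a narrow peak they were 0.72 and 0.763, and without mismatch-rich members 0.898 and 0.943. Members overlapping a site call in either H3K4me3 library were 70.95%, and 52.7% at a p of 1e-12. The causes were not tested. No paired analysis was possible because each group had 1 library. Depth limits single regions: the median member region held 75 reads in wild-type and 95 in STAT3-deficient cells, and small differences at 1 region were not detectable.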

Other observations

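Across the 1012 members, the phospho-STAT3 excess had no visible relation to the H3K4me3 reads of the region (Spearman rho 0.0022) or to its width (rho 0.02), as a description of members that share the same libraries. Over the 946 marked members, the H3K4me3 ratio between genotypes had a rho of -0.04 with the excess and of 0.13 with the H3K4me3 reads. Of the members, 500 (49.4%) had fewer H3K4me3 reads per bp at the summit than in the flanks in both genotypes and 352 (34.8%) in neither.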
